A study of Mus musculus with 69 samples.

Results

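The 10 genes described here were Fos, Jun, Junb, Fosl1, Egr1, Klf6, Myc, Ier2, Ier3 and Dusp1, chosen by their gene symbols from the 17306 probe sets of a liver expression array, with 1 probe set for each gene. Immediate early genes are genes whose transcription starts within minutes of a stimulus and needs no newly made protein. Fos, Jun, Junb and Fosl1 encode proteins that pair into the transcription factor AP-1, Egr1 and Klf6 encode zinc finger transcription factors, and Myc encodes the growth-associated transcription factor MYC. Ier2 and Ier3 encode regulators induced by growth factors and stress, and Dusp1 encodes a phosphatase that switches off the MAP kinases which drive many of these genes. In liver they are known for their rise after partial hepatectomy and injury and also after mere handling or excision of the tissue.

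Male C57BL/6 mice aged 10 weeks had received 1 oral gavage of acetaminophen (APAP, the painkiller whose overdose kills hepatocytes around the central veins), isoniazid (INZ, a tuberculosis drug), paraquat (PQ, a redox-cycling herbicide) or vehicle. At 1 day APAP was given at 168.75, 225 and 300 mg/kg, INZ at 22, 44 and 88 mg/kg and PQ at 12.5, 25 and 50 mg/kg, here called low, medium and high, and at 2 days livers of the high dose of each compound were taken. Each group held 5 arrays, 1 per mouse, except PQ medium with 4, which gave 69 arrays in 14 groups. The vehicle mice of each day, labelled for APAP alone, served all 3 compounds, so the comparisons of a day shared their controls.

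All signals are log2 values, and a difference of 1 log2 unit is a doubling. Errors are SD over mice unless SE is stated, and a gene was called where limma gave an adjusted p under 0.05 over all probe sets. Hepatocyte markers such as the albumin gene had mean signals between 12.2 and 12.7 in livers of the high APAP dose at 1 day, against 12.5 to 12.7 in the vehicle livers of that day. Probe sets of 62 olfactory and vomeronasal receptor genes, which liver is not known to express, had a 95th percentile of 3.38 in their mean signal. In bulk liver, more cells of a type and more RNA per cell cannot be told apart. Replicate 1 of APAP low and of PQ high and replicate 4 of APAP medium, all at 1 day, stood apart from their groups. In APAP high at 1 day, replicates 1 and 4 lay apart from replicates 2, 3 and 5 in Ier3, Klf6 and Fosl1. The split was not limited to these genes. On the first principal component, the main axis of difference over all probe sets, replicates 1 to 5 lay at -12.7, 66.7, 64.8, 12.3 and 71.2. Vehicle livers of that day lay between -14.4 and -8.23. APAP low replicate 1 (59.0), APAP medium replicate 4 (61.6) and PQ high replicate 1 (62.35) lay near the high ones. The values of these arrays are given with the results they touch.

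At the high APAP dose after 1 day, 6 of the 10 genes rose and none fell: Ier3, Klf6, Fosl1, Fos, Jun and Junb. Of all probe sets, 30.1% were called in this comparison, 14.8% as higher. The median log2 difference was 0.72 over the 10 genes and -0.05 over all probe sets. Ier3 rose most, 5.78-fold, and Egr1, Ier2, Myc and Dusp1 did not pass the test. The 3 genes with the smallest adjusted p, Ier3, Klf6 and Fosl1, were also the 3 called in the trend over the APAP doses. That trend rested mostly on the same APAP high and vehicle arrays, so it is not a separate result.

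**Figure D1:**
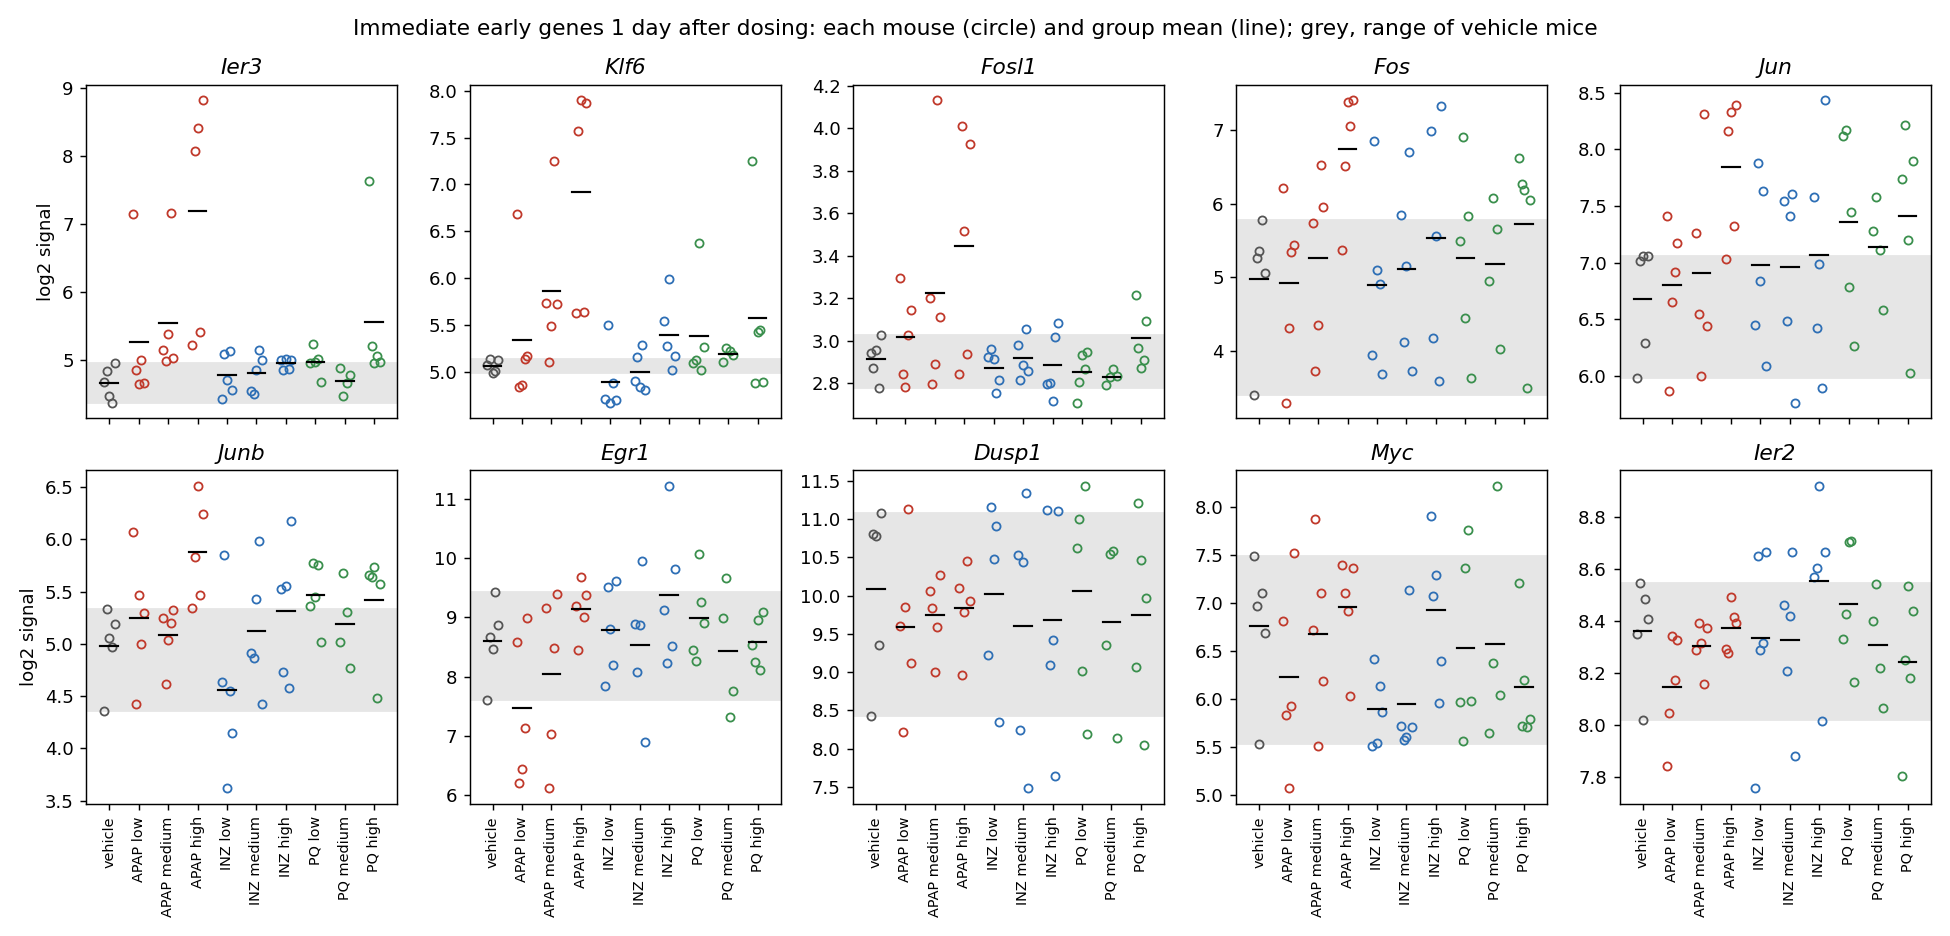
Log2 signal (y axis) of each gene in every mouse at 1 day (circles) by group (x axis), with group means (black lines) and the range of the vehicle mice (grey band). Ier3, Klf6 and Junb of all 5 APAP high mice lie above every vehicle mouse, while their Ier2 lies inside the vehicle band.

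Ier3, which encodes a stress-induced regulator of cell survival, had signals of 5.22, 8.08, 8.42, 5.41 and 8.82 in the 5 APAP high livers at 1 day. The vehicle livers of that day had 4.67, 4.84, 4.47, 4.37 and 4.95. All 5 APAP livers lay above every vehicle liver, but 3 of them (replicates 2, 3 and 5) stood more than 3 units above the vehicle mean of 4.66 and the other two close to the vehicle range. The difference was 2.53 ± 0.44 (SE), a 5.78-fold increase with a 95% interval of 3.15 to 10.6 (adjusted p = 0.00047). This SE and interval came from 1 spread shared by all groups, not from the APAP high livers alone. The exact permutation p was 0.0079, two-sided, the smallest that 5 against 5 arrays can give.

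Klf6, a Kruppel-like zinc finger factor known as an early response gene of injured liver, had the same pattern over the mice. Its signals were 5.62, 7.57, 7.90, 5.63 and 7.87 in APAP high livers, against 5.07, 5.14, 4.99, 5.01 and 5.13 in vehicle livers. Replicates 2, 3 and 5 were again the high ones, and the groups did not overlap. Klf6 rose 3.62-fold (log2 difference 1.85, SE 0.35, adjusted p = 0.000633, exact permutation p = 0.0079).

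Fosl1 encodes FRA1, a FOS relative that takes the place of FOS in AP-1 in lasting responses. Its signals were 2.84, 4.01, 3.52, 2.94 and 3.93 in APAP high livers, against 2.94, 2.87, 2.96, 2.78 and 3.03 in vehicle livers. The signal exceeded the receptor level of 3.38 in replicates 2, 3 and 5 only, and the other two APAP livers lay within the vehicle range. All 5 vehicle livers lay below that level, so Fosl1 has no measured fold change here or in the comparisons below, and its values are differences of log2 signals. The Fosl1 signal was higher by 0.53 ± 0.14 (SE) in APAP high livers (adjusted p = 0.00454), whereas the exact permutation p was 0.12.

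Fos, the founding AP-1 gene, had signals of 5.37, 6.52, 7.38, 7.06 and 7.41 in APAP high livers. Vehicle livers had 3.40, 5.27, 5.36, 5.77 and 5.06. Of the APAP livers, 4 of 5 exceeded every vehicle liver, and replicate 1 lay inside the vehicle range. Fos rose 3.42-fold with a wide 95% interval of 1.32 to 8.88 (log2 difference 1.77, SE 0.69, adjusted p = 0.0441, exact permutation p = 0.016).

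Jun encodes the usual partner of FOS in AP-1. Its signals were 7.03, 8.16, 8.32, 7.32 and 8.39 in APAP high livers, against 5.98, 7.01, 7.05, 6.29 and 7.06 in vehicle livers, so that only replicate 1 of the APAP livers overlapped with vehicle. Jun rose 2.24-fold (log2 difference 1.17, SE 0.44, adjusted p = 0.0389, exact permutation p = 0.024). Junb, a second JUN family member, had 5.35, 5.83, 6.52, 5.47 and 6.24 in APAP high livers, against 4.36, 5.33, 5.05, 4.97 and 5.19 in vehicle livers. The 2 groups did not overlap for Junb, by a narrow margin in replicate 1. Junb rose 1.87-fold (log2 difference 0.90, SE 0.33, adjusted p = 0.0307, exact permutation p = 0.0079).

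For 3 of the 10 genes, Ier3, Klf6 and Junb, the APAP high and vehicle livers did not overlap, as did 7.2% of all probe sets. The calls of Fos, Jun and Junb rested on single livers. Fos lost its call without any one of APAP high replicates 2, 3, 4 and 5 or vehicle replicates 1, 2, 3 and 5, with adjusted p between 0.054 and 0.146. Jun lost it without APAP high replicate 2, 3 or 5 or vehicle replicate 1 or 4, with adjusted p between 0.0845 and 0.113. Junb lost it without APAP high replicate 2, 3 or 5 or vehicle replicate 1, with adjusted p between 0.0569 and 0.115. Without any one of APAP high replicates 2, 3 and 5 or vehicle replicate 1, 3 genes were called in place of 6. Ier3, Klf6 and Fosl1 kept their calls without each of the 10 arrays in turn.

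The test took 1 spread per gene for all groups, although the SD of Ier3 was 1.73 in APAP high livers and 0.25 in vehicle livers of the same day. A fit of these 10 arrays alone called 0 of the 10 genes, with adjusted p between 0.0662 and 0.114 for the 6 genes named, and 18 probe sets in all. Exact permutation adjusted over all probe sets called 0, with adjusted p between 0.11 and 0.254. The smallest exact p that 5 against 5 arrays can give, 0.0079, itself became 0.11 after adjustment here. This test could therefore call no gene in this comparison, whatever its difference. With 1 weight per group, shared by all probe sets, Ier3, Klf6 and Fosl1 were called. Fos (adjusted p = 0.10), Jun (0.0871) and Junb (0.0722) were not. Such weights do not model the unequal spread of a single gene such as Ier3.

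Of the 4 remaining genes, Egr1 had signals of 9.19, 8.44, 9.68, 9.01 and 9.37 in APAP high livers, against 7.60, 8.67, 8.46, 9.42 and 8.87 in vehicle livers. One APAP liver exceeded the vehicle livers, and the difference was 0.53 with a 95% interval of -0.82 to 1.88 (adjusted p = 0.579). Ier2 lay between 8.28 and 8.49 in APAP high livers, against 8.02 to 8.55 in vehicle livers. Its difference of 0.01 had the narrowest interval of the 4 genes, -0.31 to 0.33 (adjusted p = 0.964). Myc lay between 6.04 and 7.39 in APAP high livers, against 5.54 to 7.49 in vehicle livers (difference 0.20, 95% interval -0.80 to 1.21, adjusted p = 0.79). Dusp1 lay between 8.96 and 10.45 in APAP high livers, against 8.42 to 11.08 in vehicle livers (difference -0.25, 95% interval -1.63 to 1.14, adjusted p = 0.817). For Egr1, Myc and Dusp1 a doubling lay inside the interval, so these arrays did not exclude a rise of that size.

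**Figure D2:**
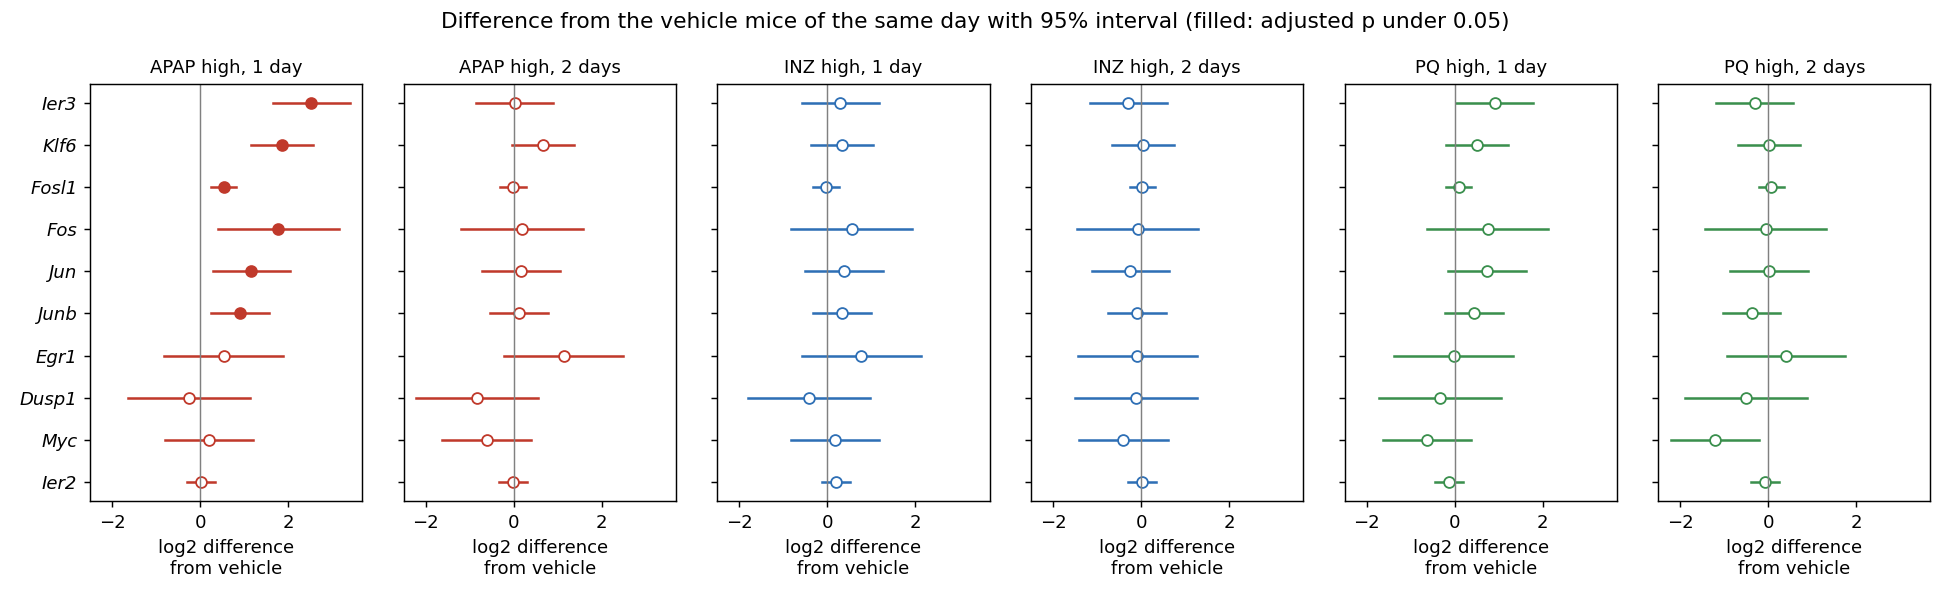
Log2 difference from the vehicle mice of the same day (x axis) with its 95% interval for each gene (y axis) and each high dose group; filled points have an adjusted p under 0.05. Filled points occur only for APAP at 1 day. The intervals use 1 spread per gene shared by all groups.

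The genes differed widely in how much they varied among vehicle mice. The pooled SD within the vehicle groups of both days was 0.81 for Fos, 0.50 for Jun, 0.71 for Egr1, 0.86 for Myc and 0.95 for Dusp1, each larger than for at least 99.55% of the probe sets. For comparison, the median SD over all probe sets was 0.12. Dusp1 spanned a 6.29-fold range over the 10 vehicle mice, Myc a 6.79-fold and Fos a 5.18-fold range. Junb (SD 0.29), Ier3 (0.24) and Ier2 (0.16) varied less, and Klf6 (0.11) and Fosl1 (0.084) lay below the median. The 3 genes called with the smallest adjusted p had vehicle SDs of at most 0.24, and 3 of the 4 genes not called had vehicle SDs of at least 0.71.

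**Figure D3:**
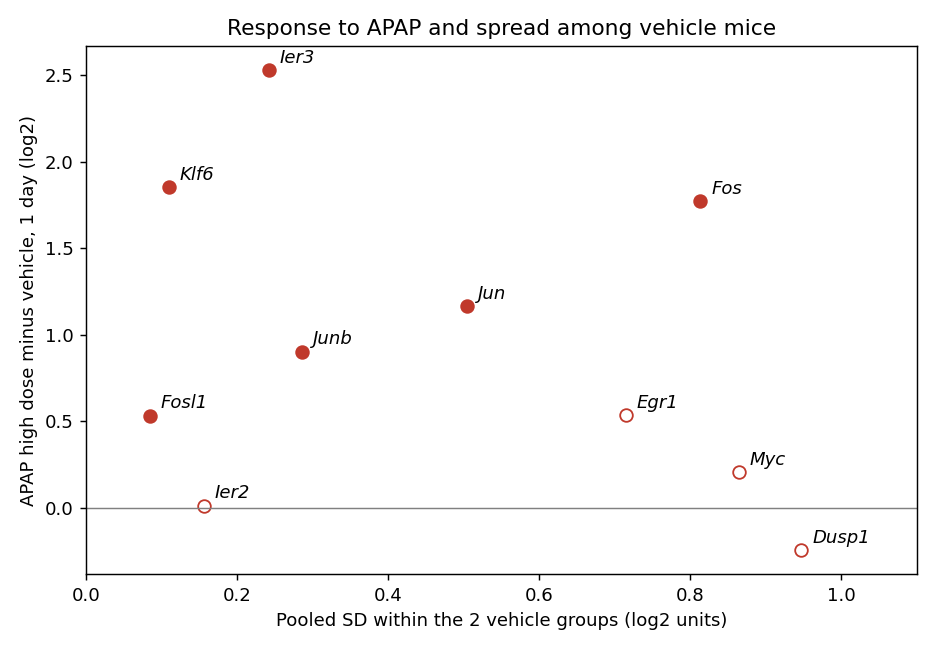
Log2 difference between APAP high and vehicle livers at 1 day (y axis) against the pooled SD within the vehicle groups of both days (x axis, log2 units), 1 point per gene; filled points have an adjusted p under 0.05. Ier3 and Klf6 combine a large difference with an SD under 0.25, whereas Dusp1 and Myc have SDs of 0.95 and 0.86 and differences near 0.

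Within groups, Fos and Jun followed each other from mouse to mouse. The same array held the highest Fos and the highest Jun signal in 11 of the 14 groups, and the lowest of both in 12 of 14. Fos and Junb shared their lowest array in 11 groups and their highest in 7. Dusp1 shared its lowest array with Jun in 11 groups and with Fos in 10, but its highest with Jun in 5 and with Fos in 3. For example, INZ high replicate 4 at 1 day had the lowest Fos (3.59), Jun (5.89), Junb (4.57) and Dusp1 (7.64) of its group. PQ high replicate 4 at 1 day likewise had the lowest Fos (3.50), Jun (6.02), Junb (4.48) and Dusp1 (8.05). Vehicle replicate 1 of the same day was also the lowest of its group in Fos, Jun, Junb and Dusp1, at 3.40, 5.98, 4.36 and 8.42. These counts are descriptions, since genes of 1 array share its RNA and its normalization.

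**Figure D4:**
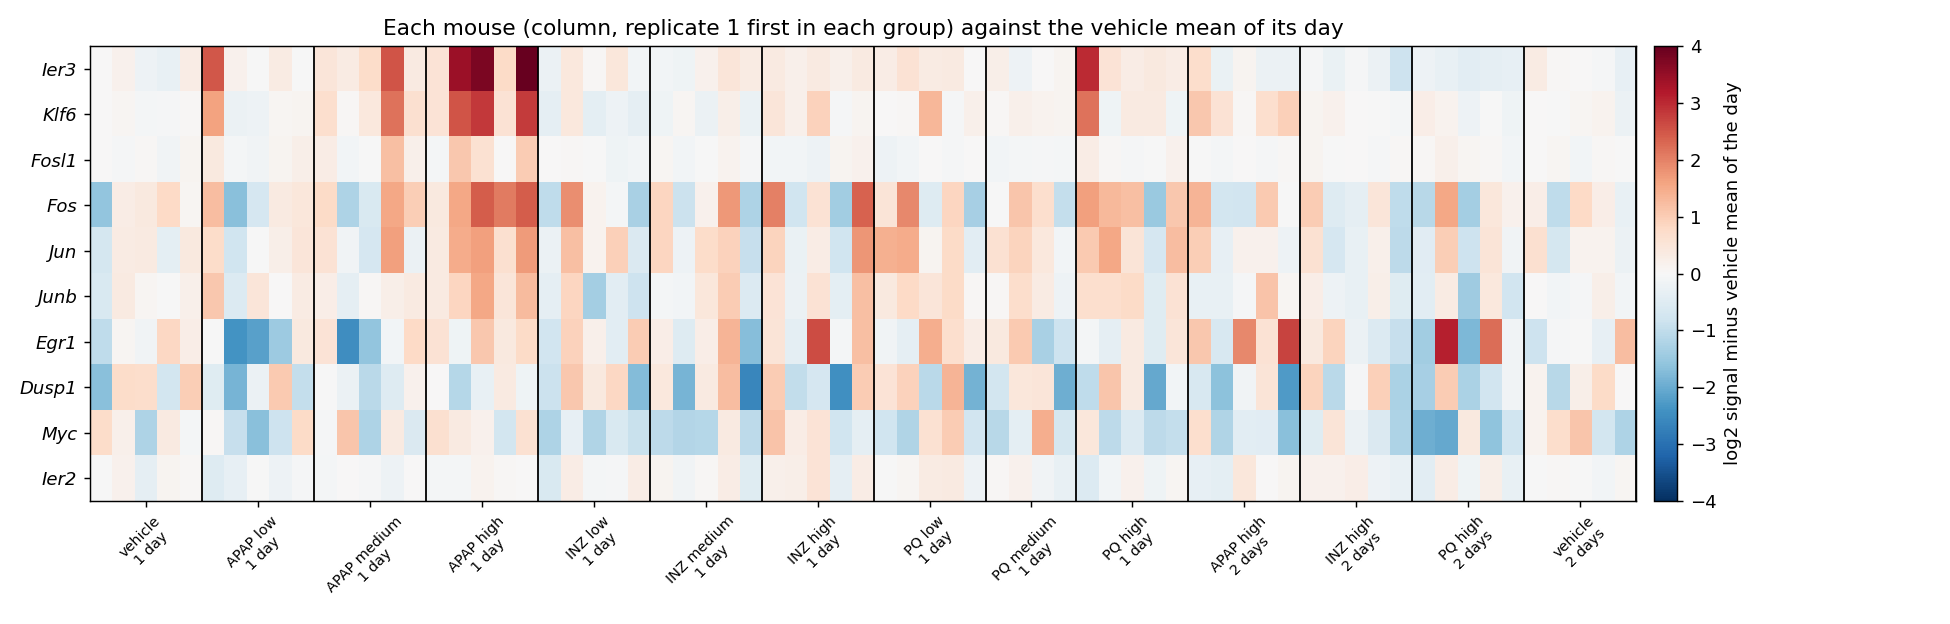
Log2 signal of each gene (y axis) in every mouse (columns) minus the vehicle mean of the same day, red above and blue below, with black lines between groups. Fos, Jun, Junb and Dusp1 are all blue in vehicle replicate 1, INZ high replicate 4 and PQ high replicate 4 at 1 day, while the strongest red in Ier3 and Klf6 lies in 5 APAP mice and 1 PQ high mouse.

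Promoter sequence from RefSeq (GRCm38.p6) was at hand for 6 of the 10 genes, Fos, Jun, Junb, Klf6, Dusp1 and Ier3, and the 250 bases before the start were searched. Jun and Klf6 held the 8-letter motif TGACATCA, a variant of the AP-1 and CRE element, as did 2.93% of all 32851 promoters. Dusp1 held TGACGTCA, the full cyclic AMP response element (1.55% of promoters). Its first 5 letters alone, TGACG, which overlap the full element, stood in Fos, Junb and Dusp1 (17.8% of promoters). TGACTCA, the AP-1 site (4.46% of promoters), and the CArG box bound by SRF (1.47%) were found in none of the 6 windows, and a kappaB site (5.0%) in Fos only. Sites further upstream lay outside this search. TATAA, searched on the gene's strand only, stood in Fos and Ier3 (16.0% of promoters). All other motifs were searched on both strands. The 60-base stretches are shown because they hold these matches in genes that often shared their lowest array within groups (Fos, Jun, Junb, Dusp1) and in the genes with the largest response (Klf6, Ier3). They run 5′ to 3′ on the gene's strand, with TGACG, TGACATCA, TGACGTCA and TATAA matches in capitals. They lie at chr12:85473810-85473869 (plus strand) for Fos, chr4:95052243-95052302 (minus) for Jun, chr8:84978809-84978868 (minus) for Junb, chr13:5861359-5861418 (plus) for Klf6, chr17:26508573-26508632 (minus) for Dusp1 and chr17:35821633-35821692 (plus) for Ier3.
Fos: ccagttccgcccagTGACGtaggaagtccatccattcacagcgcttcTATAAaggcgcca
Jun: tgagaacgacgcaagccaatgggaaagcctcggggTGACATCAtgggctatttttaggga
Junb: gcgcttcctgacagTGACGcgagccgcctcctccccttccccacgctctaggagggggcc
Klf6: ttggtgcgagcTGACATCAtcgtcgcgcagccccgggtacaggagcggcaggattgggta
Dusp1: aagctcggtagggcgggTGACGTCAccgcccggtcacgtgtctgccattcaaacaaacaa
Ier3: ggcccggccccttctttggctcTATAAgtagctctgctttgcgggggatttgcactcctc

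At the medium APAP dose after 1 day no gene was called by limma, and 3 genes had an unadjusted p under 0.05. Exact permutation adjusted over all probe sets called 0, but with so few arrays per group it could hardly call any gene. Limma called 0.243% of all probe sets. Ier3 had signals of 5.14, 4.99, 5.39, 7.17 and 5.03 in APAP medium livers, all above the highest vehicle liver of 4.95. Its difference was 0.88 (95% interval 0.01 to 1.76, adjusted p = 0.268, exact permutation p = 0.0079), and its groups were the only ones among the 10 genes that did not overlap, as in 4.02% of all probe sets. Replicate 4 alone stood far above vehicle. The same liver had the highest Klf6 (7.25), Fosl1 (4.13), Fos (6.52) and Jun (8.31) of its group. Klf6 differed by 0.79 (adjusted p = 0.23, exact permutation p = 0.024), with 4 of 5 livers above every vehicle liver, and Fosl1 by 0.31 (adjusted p = 0.243).

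At the low APAP dose, limma called no gene, 0 had an unadjusted p under 0.05, and 0% of all probe sets were called. Replicate 1 of this group stood apart, with Ier3 at 7.15 against 4.65 to 5.00 in the other 4 APAP low livers and Klf6 at 6.69 against 4.84 to 5.16. Egr1 had the largest difference of the 10 genes at this dose, with signals of 8.58, 6.20, 6.44, 7.14 and 8.99 in APAP low livers against 7.60 to 9.42 in vehicle livers (difference -1.14, 95% interval -2.49 to 0.22, adjusted p = 0.758).

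Over vehicle and the 3 APAP doses at 1 day, a trend linear in mg/kg was called for Ier3, Klf6 and Fosl1, and 29.3% of all probe sets were called. The low dose lay near the mean of the dose levels and had almost no weight in this trend. A called trend thus mostly compares the high dose with vehicle and does not show a graded response. Scaled to the span between vehicle and 300 mg/kg, the fitted trend was 2.23 for Ier3 (SE 0.42, adjusted p = 0.000898), 1.69 for Klf6 (SE 0.34, adjusted p = 0.0011) and 0.51 for Fosl1 (SE 0.14, adjusted p = 0.00526). The group means of Ier3 were 4.66 ± 0.25 in vehicle livers and 5.26 ± 1.07, 5.54 ± 0.92 and 7.19 ± 1.73 at the low, medium and high dose. Each dose differed from the next lower level by less than its own SD. Those of Klf6 were 5.07 ± 0.068, 5.34 ± 0.77, 5.86 ± 0.82 and 6.92 ± 1.19 in the same order. Fos had a trend of 1.47 (adjusted p = 0.0838), Jun of 0.98 (0.0729) and Junb of 0.73 (0.0708), none of which passed. Without APAP high replicate 1 these 3 passed as well, and 6 genes were called. A fit of the 20 arrays alone called none, with Ier3 at an adjusted p of 0.0583 and Klf6 at 0.0563.

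At 2 days after the high APAP dose limma called no gene against the vehicle livers of that day, and 0 had an unadjusted p under 0.05. Exact permutation adjusted over all probe sets called 0, but with so few arrays per group it could hardly call any gene. In this comparison limma called 4.48% of all probe sets. Ier3 had signals of 5.71, 4.75, 5.10, 4.77 and 4.78 in APAP livers at 2 days, against 5.34, 5.05, 5.02, 4.95 and 4.67 in vehicle livers, and the groups overlapped fully except for replicate 1. Its difference was 0.02 with a 95% interval of -0.86 to 0.89 (adjusted p = 0.989). Klf6 had 6.20, 5.69, 5.15, 5.78 and 6.07 in APAP livers at 2 days, against 5.12, 5.11, 5.18, 5.27 and 4.90 in vehicle livers. For Klf6, 4 of 5 APAP livers still exceeded every vehicle liver, with a difference of 0.66 that did not pass after adjustment (95% interval -0.04 to 1.36, adjusted p = 0.298, exact permutation p = 0.024). Fosl1 lay between 2.85 and 2.95 in APAP livers at 2 days, inside the range of 2.79 to 2.97 in vehicle livers. Egr1 had the largest difference at 2 days, 1.13 (adjusted p = 0.366), with signals between 7.74 and 11.08 in APAP livers and 7.56 and 9.61 in vehicle livers.

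Compared directly, 3 of the 10 genes were lower at 2 days than at 1 day after the high APAP dose, where 18.9% of all probe sets were called, 11.8% as lower. Ier3 averaged 5.02 ± 0.41 at 2 days and 7.19 ± 1.73 at 1 day, a difference of -2.17 ± 0.44 (SE, adjusted p = 0.000755, exact permutation p = 0.032). Klf6 averaged 5.78 ± 0.41 at 2 days and 6.92 ± 1.19 at 1 day (difference -1.14, SE 0.35, adjusted p = 0.0169). Fosl1 averaged 2.89 ± 0.041 at 2 days and 3.45 ± 0.54 at 1 day (difference -0.55, SE 0.14, adjusted p = 0.00552). Fos averaged 5.02 ± 0.98 at 2 days and 6.75 ± 0.85 at 1 day, which missed the threshold (difference -1.73, adjusted p = 0.068). Jun (difference -0.85, adjusted p = 0.18) and Junb (-0.62, 0.187) were not called either.

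Klf6 lost its call in this direct comparison without APAP high replicate 2, 3 or 5 at 1 day or replicate 3 at 2 days (adjusted p 0.0627 to 0.104). Fosl1 lost its call without replicate 2 or 5 at 1 day (adjusted p = 0.0531 and 0.0523), and 1 gene, Ier3, was then called. A fit of the 10 arrays alone called 0 of the 10 genes and 0 probe sets.

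With each day's vehicle subtracted, the change between the days was called for Ier3 only, at -2.51 ± 0.62 (SE, adjusted p = 0.0192), and for 2.81% of all probe sets. The Ier3 call was lost without APAP high replicate 2, 3 or 5 at 1 day (adjusted p 0.0504 to 0.0746), and 0 genes were then called. Without APAP high replicate 1 or replicate 4 at 1 day 3 genes were called. Klf6 gave -1.19 (adjusted p = 0.147) and Fosl1 -0.55 (adjusted p = 0.104). The vehicle livers of the 2 days gave no call for any of the 10 genes by limma (none had an unadjusted p under 0.05, count 0), with 0% of all probe sets called.

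No gene was called by limma in any of the 4 INZ groups against vehicle, and 0 had an unadjusted p under 0.05. Exact permutation adjusted over all probe sets called 0 as well, but with so few arrays per group it could hardly call any gene. At the high INZ dose after 1 day, the comparison with the most calls in these groups, 0.0231% of all probe sets were called, and 0% in the other 3. Ier3 had signals between 4.86 and 5.02 in INZ high livers, against 4.37 to 4.95 in vehicle livers (difference 0.29, 95% interval -0.58 to 1.17). Fos had 6.99, 4.17, 5.56, 3.59 and 7.33 in INZ high livers, with 2 of 5 above and none below the vehicle range. Egr1 reached 11.22 in INZ high replicate 3, and its difference was 0.77 (95% interval -0.58 to 2.13).

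The dose trends of INZ and PQ at 1 day called none of the 10 genes by limma, with 0 at an unadjusted p under 0.05, and 0.00578% (INZ) and 0% (PQ) of all probe sets. In the 4 PQ groups limma called no gene and 0% of probe sets. Exact permutation adjusted over all probe sets called 0, but with so few arrays per group it could hardly call any gene. At an unadjusted limma p under 0.05, 1 gene differed at the high dose after 1 day, 1 after 2 days and 0 at the lower doses. At 1 day the gene was Ier3, with signals of 7.64, 5.21, 4.95, 5.06 and 4.97 in PQ high livers against 4.37 to 4.95 in vehicle livers (difference 0.91, unadjusted p = 0.0426, adjusted p = 0.777). Replicate 1 alone stood far above vehicle, and it was also the highest of its group in Klf6, at 7.24 against 4.88 to 5.44 in the other 4. After 2 days the gene was Myc, with 5.23, 5.13, 7.57, 5.60 and 6.40 in PQ high livers against 7.32, 7.91, 8.30, 6.46 and 5.97 in vehicle livers (difference -1.21, unadjusted p = 0.0196, adjusted p = 1).

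At the high dose after 1 day APAP livers exceeded INZ livers in Ier3, Klf6 and Fosl1, in a comparison that called 24.7% of all probe sets. The difference was 2.24 for Ier3 (SE 0.44, adjusted p = 0.000723, 5 of 5 APAP livers above every INZ liver), 1.52 for Klf6 (SE 0.35, adjusted p = 0.0016, 3 of 5) and 0.56 for Fosl1 (SE 0.14, adjusted p = 0.00334, 3 of 5). Fits of these 10 arrays alone called none of the 10 genes here. Exact permutation adjusted over all probe sets did not either, though with so few arrays per group it could hardly call any gene. Between APAP and PQ livers at the same dose and day, 0 genes were called by limma and 3 had an unadjusted p under 0.05, with 0.387% of all probe sets called. Ier3 (difference 1.62, 95% interval 0.75 to 2.50, adjusted p = 0.0502), Klf6 (1.34, 0.64 to 2.05, adjusted p = 0.0502) and Fosl1 (0.44, 0.15 to 0.72, adjusted p = 0.064) missed the threshold. All 3 passed it without PQ high replicate 1, without APAP high replicate 1 or without APAP high replicate 4. At 2 days 0 genes were called in either comparison, where 3.83% (INZ) and 3.53% (PQ) of all probe sets were called, and 0 had an unadjusted p under 0.05.

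Markers of infiltrating leukocytes were high in the livers with the highest Ier3 and Klf6, but did not follow these genes in every array. The mean signal of 10 monocyte and macrophage markers was 5.60, 7.59, 7.43, 6.85 and 7.68 in APAP high livers at 1 day, against 5.73 to 6.00 in vehicle livers. That of 6 neutrophil markers was 4.31, 6.93, 6.55, 5.87 and 6.95 in APAP high livers, against 4.30 to 4.62 in vehicle livers. Among the APAP high livers, replicates 2, 3 and 5 were thus the highest in leukocyte markers as in Ier3, Klf6 and Fosl1, and replicate 1 lay at the vehicle level. Replicate 4 lay above the vehicle range in both leukocyte means, while its Ier3 was 5.41 and its Fosl1 2.94. APAP low replicate 1 (7.49 and 6.70), APAP medium replicate 4 (7.28 and 6.03) and PQ high replicate 1 (7.36 and 6.65), the single livers with high Ier3 and Klf6, were also the highest of their groups in the monocyte and macrophage and the neutrophil means. S100a8 rose 19.3-fold and S100a9 12.2-fold in APAP high livers, and 4 of 6 neutrophil and 6 of 10 monocyte and macrophage markers were called higher, beside 14.8% of all probe sets. The mean of Cx3cr1 was at or below the receptor level in both groups, and those of Ccr2 and Itgam in vehicle livers.

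At 2 days, 7 of the 10 monocyte and macrophage markers were called higher in APAP livers, beside 4.48% of all probe sets called in either direction. Their mean lay between 6.27 and 7.50 in these livers, against 5.54 to 5.96 in vehicle livers of that day. Ier3 lay between 4.75 and 5.71 in the same APAP livers, against 4.67 to 5.34 in vehicle livers. Of the other lists at 1 day, endothelial markers lay between 7.12 and 7.70 in APAP high livers against 7.04 to 7.17 in vehicle livers, stellate cell markers between 5.96 and 6.62 against 6.00 to 6.27, and platelet markers between 3.88 and 5.56 against 3.89 to 4.14. Kupffer cell markers lay between 8.05 and 9.12 against 8.34 to 8.73, cholangiocyte markers between 3.82 and 4.73 against 3.74 to 4.09, and the 2 erythroid markers, Alas2 and Car1, between 5.31 and 7.87 against 7.97 to 8.16. In APAP high replicates 1 to 5 the cholangiocyte means were 3.82, 4.70, 4.73, 3.84 and 4.66. The erythroid means were 7.87, 5.80, 5.85, 7.69 and 5.31. Replicates 2, 3 and 5 thus stood apart in these lists too, and the match with Ier3 and Klf6 was not particular to leukocyte markers. The 9 T and NK cell markers (3.28 to 3.72 in APAP high livers, 3.48 to 3.57 in vehicle livers) and 2 B cell markers (4.06 to 4.71 in APAP high livers, 3.99 to 4.42 in vehicle livers) held no called gene. The part of all these cells in the result was not tested.

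Some arrays had titles ending in a number above 190, 11 in all, among them APAP high replicate 1 at 1 day and no vehicle array, and the labels do not say what the number stands for. Over arrays with numbers up to 190 the difference of APAP high from vehicle at 1 day was 3.02 for Ier3, 2.18 for Klf6, 0.68 for Fosl1, 2.12 for Fos, 1.37 for Jun and 1.04 for Junb, and all 6 were called. Over these arrays 2 genes were called at the medium APAP dose. Without the first arrays of APAP low, APAP high and PQ high at 1 day the same 6 genes were called. That set was picked from these same arrays. It leaves out an APAP high liver with low Ier3 (5.22) and keeps APAP medium replicate 4, which stood apart.

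The counts of the gene lists that follow stand beside 30.1% of all probe sets called in APAP high livers at 1 day, 14.8% as higher, and no list was tested against the other genes. Of 14 other AP-1 genes measured, 3 rose and 1 fell at 1 day, a share near that over all probe sets, with a median difference of 0.14 against -0.05 over all probe sets. Atf3, a stress-induced factor that pairs with JUN, averaged 6.14 ± 1.63 in APAP high livers and 4.05 ± 0.19 in vehicle livers, a 4.26-fold rise (adjusted p = 0.0031). Jdp2, a repressor of AP-1 activity, rose by 0.48 and Fosl2, which encodes FRA2, by 0.32, while Batf2 fell by 0.57. At 2 days Maf, a large MAF family factor, was higher by 0.26, and no other gene of the list was called.

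Among 31 other immediate early genes, 10 rose and 2 fell in APAP high livers at 1 day (median 0.16), where 30.1% of all probe sets were called. Ier5 differed by 0.55 (adjusted p = 0.00047), with 3.85 ± 0.19 in APAP high livers and 3.30 ± 0.11, below the receptor level, in vehicle livers. Gadd45b, an activator of stress MAP kinase signalling, averaged 5.05 ± 0.95 in APAP high livers and 3.67 ± 0.12 in vehicle livers (difference 1.38). Egr2, an EGR1 relative, averaged 3.80 ± 1.02 in APAP high livers and 2.56 ± 0.029, also below the receptor level, in vehicle livers, so that its log2 signal difference of 1.24 gives no measured fold. Rhob, which encodes a small GTPase, rose by 0.95. At 2 days none of the 31 was called, with a median of -0.14.

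Of 10 Kruppel-like relatives of Klf6, 1 was higher, 5 were lower and 4 were not called at 1 day (median -0.23), beside 30.1% of all probe sets called. Klf1, the erythroid factor, averaged 5.11 ± 0.92 in APAP high livers and 6.43 ± 0.27 in vehicle livers (difference -1.32), beside the lower erythroid markers given above. Klf15, a factor of fasting metabolism, fell by 0.71 and Klf12 by 0.49, and Klf7 rose by 0.37.

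Upstream of AP-1, 3 of 7 genes for EGF receptor ligands and receptors were higher and none lower in APAP high livers at 1 day (median 0.09), beside 14.8% of all probe sets called higher. Hbegf averaged 5.21 ± 0.96 in APAP high livers and 3.99 ± 0.077 in vehicle livers, a 2.32-fold rise. Ereg averaged 4.40 ± 1.50 in APAP high livers and 2.81 ± 0.14, below the receptor level, in vehicle livers. Btc rose by 0.57. All 3 are ligands of the EGF receptor family, which signal through MAP kinases. Of 14 MAP kinases and ternary complex factors, 3 rose and 4 fell (median -0.02), beside 30.1% of all probe sets called, with Mapkapk2 higher by 0.50.

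Among 14 relatives of Dusp1 and other feedback inhibitors of MAP kinases, 5 rose and none fell at 1 day (median 0.16), beside 14.8% of all probe sets called higher, and Dusp1 itself was not called. Dusp6, which acts on ERK, averaged 9.60 ± 0.20 in APAP high livers and 8.82 ± 0.40 in vehicle livers (difference 0.78). Dusp3 rose by 0.72, Dusp10 by 0.56 and Dusp16 by 0.43. For Myc, likewise not called, 6 of 9 target genes rose and none fell (median 0.49), beside the same 14.8%. Nop58, a factor of ribosome assembly, averaged 8.91 ± 0.83 in APAP high livers and 7.88 ± 0.26 in vehicle livers, and Ncl, which encodes nucleolin, rose by 0.61. Cdk4 and Ccnd2 of the cell cycle rose by 0.49 and 0.48. Among 10 relatives and partners of MYC, 3 rose and 1 fell (median 0.04), beside 30.1% of all probe sets called. Mycn differed by 0.72 and Mycl by -0.58.

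By their means in the 14 groups, the probe sets most like Ier3 were Thbs1, AA467197 and Smox, with Pearson correlations of 0.99, 0.98 and 0.98. Those most like Klf6 were Nid1, Acot9 and Map4k4 (0.98, 0.98 and 0.97), and those most like Fosl1 were Tnfsf9, Flot1 and Hspa1a (0.98, 0.98 and 0.98). Fos was nearest to Hcar2, Tm4sf1 and Ptpn2 (0.96, 0.95 and 0.93), and Jun to Fos, Tasor2 and Jak1 (0.90, 0.88 and 0.87). Junb was nearest to Pnrc1, Cxcl10 and Igfbp1 (0.93, 0.89 and 0.86). For Egr1, Ier2, Myc and Dusp1 the highest correlations were lower, 0.74 with Myh10, 0.83 with Doc2b, 0.87 with Dctn4 and 0.85 with Serpina4-ps1. These are descriptions over 14 group means, of which the APAP high group at 1 day was the highest for Ier3, Klf6, Fosl1, Fos, Jun and Junb.

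The extreme group means of the 4 genes that were not called were spread over several groups, with some groups shared. Egr1 was highest in APAP high livers at 2 days (9.52 ± 1.28) and lowest in APAP low livers at 1 day (7.47 ± 1.25). Ier2 was highest in INZ high livers at 1 day (8.56 ± 0.33) and lowest in APAP low livers (8.15 ± 0.21). Myc ran between 5.89 ± 0.39 in INZ low livers and 7.19 ± 0.97 in vehicle livers at 2 days. Dusp1 ran between 9.20 ± 1.12 in APAP high livers at 2 days and 10.09 ± 1.15 in vehicle livers at 1 day, a span smaller than the SD within most groups.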

How the data were processed

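Liver RNA of 69 mice was labelled with biotin and hybridised to 1 array each. The authors deposited log2 signals, with a single value for each gene's probe set. The submitters' processing notes name RMA, which subtracts background, puts arrays on a common quantile scale and combines the probes of a set. Array medians lay between 4.23 and 4.56, and no detection calls or depths were given, so the number of arrays limits the precision. Groups came from the labels, and replicate numbers follow the order of the records.

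Group means were estimated from the 69 arrays together, using limma 3.58.1 (R 4.3.3), with 55 residual and 3.5 prior degrees of freedom. Tests were two-sided with Benjamini-Hochberg adjustment over 17306 probe sets, and about 865 would reach an unadjusted p under 0.05 if none differed. The fit was tested on simulated data with normal noise and the same spread of a gene in all groups, so unequal spreads were not covered. P-values measure the spread between these mice only. The 10 genes and all gene and marker lists were chosen with earlier results of these data known. Named genes were the 10 genes, up to 4 called genes of each pathway list and up to 2 of each cell type list with the smallest adjusted p, and the 3 probe sets with the highest correlation of group means. Gene positions and promoters are those of RefSeq on GRCm38.p6. Alternatives covered the arrays used, array weights, scaling, a filter on dim probe sets, the eBayes prior and exact permutation. Plots used matplotlib 3.10.9 in Python 3.11.15.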

Additional observations from a re-analysis of the deposited data

Results flagged for a closer look

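Each of the 10 genes was looked at in each of the 14 groups for 1 array far from the rest, as the gap to its nearest neighbour divided by the range of the group. In 12 of the 140 cases this ratio passed Dixon's 95% critical value, and chance passes about 1 in 20, or 7. Ier3 and Klf6 made up 8 of the 12. Ier3 was far above its group in APAP low replicate 1 (ratio 0.862), in APAP medium replicate 4 (0.818) and in PQ high replicate 1 at 1 day (0.904), and far below it in INZ high replicate 5 at 2 days (0.729). Klf6 was far above in APAP low replicate 1 (0.823), in PQ high replicate 1 (0.763), in INZ low replicate 2 (0.749) and in PQ low replicate 3 (0.817), the last at 6.38 against 5.02 to 5.26 in the other arrays.

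Fos (0.818) and Junb (0.871) were both far below their group in PQ high replicate 4 at 1 day. Junb was far above in APAP high replicate 4 at 2 days (0.728), at 6.27 against 4.85 to 5.24, and Myc in INZ medium replicate 4 (0.905), at 7.13 against 5.58 to 5.73.

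The effect of the high APAP dose on Ier3 differed between the days by limma's test of the difference, at -2.51 log2 units for 2 days minus 1 day (adjusted p = 0.0192).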

How the results depend on the processing

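No paired analysis was possible because each liver gave 1 array and replicate numbers only name arrays. For APAP high against vehicle at 1 day, 12 alternatives were run, and 6 genes were called in the original fit. A fit of the compared arrays alone called 0 genes in that comparison, 0 at 2 days against 1 day, 0 with vehicle subtracted, 0 for the APAP dose trend and 0 for APAP against INZ. Exact permutation called 0 in the first, second and last of these, where with so few arrays per group it could hardly call any gene. With 1 weight per group, shared by all probe sets, 3 genes were called in the first of these comparisons. Array weights called 6 in the trend and against INZ, 5 at 2 days against 1 day, 4 with vehicle subtracted, 3 against PQ at 1 day, and 1 each for APAP at 2 days against vehicle, INZ and PQ. Against PQ at 1 day, centred arrays, quantile normalization, leaving out dim probe sets (which drops Fosl1) and a term for title numbers above 190 each called 2. Restricting title numbers to 190 or lower called 3 against PQ, 3 with vehicle subtracted, 6 in the trend and 2 at the medium dose, and leaving out the first arrays of 3 groups called 3, 3 and 6. Without each replicate in turn, calls ranged from 3 to 6 for APAP high at 1 day, 1 to 4 at 2 days against 1 day, 0 to 3 with vehicle subtracted, 3 to 6 in the trend and 0 to 3 against PQ. Under quantile normalization Fos (adjusted p = 0.0542) and Junb (0.0528) lost their calls. Near-zero differences changed sign: Ier2 with centred arrays (-0.078), Ier2 and Myc with the vehicles of both days (-0.043 and -0.013), and, without single replicates, Ier2 (-0.074 to 0.058), Myc (-0.10 to 0.44) and Dusp1 (-0.66 to 0.00071). For APAP high at 1 day, the 6 called genes and Egr1 kept their direction under every alternative that could be run for them. Of these alternatives, 2 took the call from Ier3, Klf6 and Fosl1, 3 from Jun, and 4 each from Fos and Junb. The cause was not tested.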
